A study of Mus musculus with 7 samples.

Results

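The genes described here supply amino acids and load them onto transfer RNA. They comprise 13 enzymes that make amino acids and one-carbon units, 7 amino acid transporters or transporter subunits, and 19 aminoacyl-tRNA synthetases, 39 genes in all, taken from a fixed list by Ensembl identifier. In the data 13641 genes had a transcript start or end, among them 37 of the 39, while Slc7a5 and Aars had none under their own identifier. Expression was measured by RNA-seq of total RNA in 7 cultures of neural cells derived from B6G-2 mouse embryonic stem cells of WT genotype. Each of 6 insecticides had 1 library, and the control had 1. The exposed cultures received chlorpyrifos, an organophosphate, DDT, an organochlorine, rotenone, an inhibitor of mitochondrial complex I, carbaryl, a carbamate, deltamethrin, a pyrethroid, or imidacloprid, a neonicotinoid. All 7 cultures, the control included, began as embryoid bodies kept for 6 days, became neural progenitors in RHB-A medium with bFGF and EGF, and were moved at day 14 to BrainPhys with B27. Exposure lasted 1 day. The labels used here state neither dose nor vehicle, and all libraries come from 1 stem cell line. Because each condition has 1 library, no difference below has a replicate check, no p-value is given, and every value describes these libraries.

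In cells, the transcription factor ATF4 is translated more when the kinases of the integrated stress response slow general translation, for example when uncharged transfer RNA accumulates. Known ATF4 targets include genes for asparagine, serine and proline synthesis, for mitochondrial one-carbon metabolism, for cystine and neutral amino acid uptake, and for many cytosolic aminoacyl-tRNA synthetases. Neural progenitors draw on serine synthesis and on cystine uptake, which feeds glutathione.

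The files list the authors' FPKM (fragments scaled to transcript length and library size) of each transcript start and end, and a gene's starts and its ends were summed separately. A gene was usable for folds where its mean start total and its mean end total lay within 0.3 log2 of each other, and its level is then the average of both. Start and end totals are not separate measurements: they were identical in every library for Slc7a11, Dars and Hars. Their agreement is therefore no replicate check. Of the 39 members, 24 met this, 11 had a start total only, 2 (Cth and Vars) had ends that disagreed, and 2 had no entry under their own identifier. All 37 members with entries averaged at least 1 FPKM over the 7 libraries, so the filter on low values removed none. Among all genes, 6299 met the same conditions. Folds are differences of log2(FPKM + 1), which understates the change of low genes, and a gene is counted as higher or lower at 1.5-fold or more (0.58 on that scale). All comparisons with the control use the same control library.

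The libraries held 93977 to 95776 distinct events, and their depth is unknown because the files give FPKM and no read counts. The tissue label is brain, while the cell type label is neural progenitors. Of 9 neural progenitor markers, 8 stood at 1 FPKM or more in every library, among them Vim at 987 to 1221 FPKM. Of 9 neuron markers, 7 did so. Of these, Syt1, which encodes a synaptic vesicle calcium sensor, stood at 11.5 to 14.7 FPKM in the 6 exposed libraries, against 3.07 in the control. Its log2 folds were 1.61 to 1.95. Stmn2 was also lowest in the control, with a start total of 20.0 FPKM against 23.1 to 51.5. For the other neuron markers with entries the control lay within the range of the exposed libraries. The summed neuron markers stood at 364 to 425 FPKM in the exposed libraries and 389.9 in the control. The control is the reference of every fold below, and the part of these Syt1 and Stmn2 differences in them was not tested. Of 7 astrocyte markers, 4 stood at 1 FPKM or more in every library. Among them were Aldh1l1 and Gja1, with start totals of 27.8 to 43.6 and 36.2 to 42.3 FPKM, while Gfap stood at 0 to 0.68 FPKM. No microglia or blood marker and no endoderm marker had an entry. In bulk samples such as these, fewer cells of a type and less RNA per cell cannot be told apart.

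The DDT library held the highest level of most members. Of the 24 usable members, 15 were highest of all 7 libraries with DDT, beside 17.3% of all usable genes. These 15 were 4 of the 6 usable enzymes (Phgdh, Mthfd2, Mthfd1l and Aldh18a1), 4 of the 5 usable transporters (Slc7a11, Slc7a1, Slc1a4 and Slc38a2) and 7 of the 13 usable synthetases (Cars, Farsa, Gars, Lars, Nars, Rars and Tars). Rotenone held the highest level of 3 members (Asns, Hars and Sars), beside 16.6% of all genes, and imidacloprid that of 3 (Got1, Dars and Kars), beside 15.1%. Deltamethrin held the highest level of 1 member, Slc3a2, beside 12.8%, chlorpyrifos of 0 members, beside 13%, and carbaryl of 0 members, beside 12.5%. The control held the highest level of 2 members, Farsb and Iars, beside 12.8%. At the other end of the order, carbaryl held the lowest level of 6 members (Asns, Mthfd2, Mthfd1l, Got1, Slc3a2 and Tars), beside 14%, and the control that of 5 (Slc1a4, Slc38a2, Gars, Hars and Sars), beside 13.8%.

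**Figure D1:**
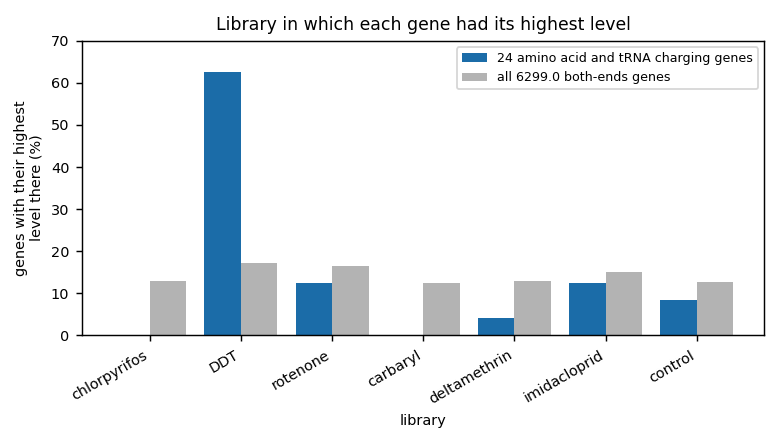
Percentage of genes (vertical axis) with their highest level in each of the 7 libraries (horizontal axis), insecticides first and control last, for the 24 usable members (blue bars) and for all 6299 usable genes (grey bars). The blue DDT bar, 15 of 24 members, stands far above its grey bar of 17.3%.

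DDT also had the highest median fold. Against the control, the median log2 fold of the 24 usable members was 0.22 with DDT, beside 0.01 for all usable genes, and 20 of the 24 stood above the control, beside 52.4% of all genes. The medians were 0.09 with rotenone (16 of 24 above the control), 0.07 with chlorpyrifos (16 of 24), 0.04 with imidacloprid (16 of 24), 0.02 with deltamethrin (12 of 24) and 0.00 with carbaryl (12 of 24), and those of all genes were between -0.00 and 0.01. By role, the DDT medians were 0.21 for the 6 enzymes, 0.40 for the 5 transporters and 0.19 for the 13 synthetases. Of these, 6 of 6 enzymes, 5 of 5 transporters and 9 of 13 synthetases stood above the control. Most of the single folds were small: with DDT, 4 members were 1.5-fold or more higher (Asns, Slc7a11, Nars and Rars), beside 3.4% of all genes, and 1 was 1.5-fold or more lower (Kars), beside 3.38%.

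Set against the other exposed cultures in turn, without the control, the DDT library was also above. The median log2 fold of DDT over chlorpyrifos was 0.15, with 20 of 24 members above. It was 0.19 over rotenone (18 of 24), 0.32 over carbaryl (20 of 24), 0.28 over deltamethrin (18 of 24) and 0.22 over imidacloprid (18 of 24). The medians of all genes in these pairs lay between -0.00 and 0.01. These pairs share the DDT library, so their values are not separate evidence. Summed over the 37 members with entries, start totals were 0.575% of all start FPKM in the DDT library, 0.539% with rotenone, 0.532% with chlorpyrifos, 0.513% with imidacloprid, 0.508% with deltamethrin, 0.497% with carbaryl and 0.494% in the control. In the DDT library the summed oligodendrocyte lineage markers were also apart, at 114 FPKM against 161 to 174 in the other libraries, nearly all of it Olig2, with 5 of the 8 markers having entries and 1 at 1 FPKM or more in all libraries. In the rotenone library the summed astrocyte markers were highest, at 129 FPKM against 86.9 to 109 in the other libraries. Of these markers 7 of 7 had entries, with 4 at 1 FPKM or more in all libraries. Apoe by end totals (45.1 against 15.1 to 32.0 FPKM) and Aldh1l1 (43.6 against 27.8 to 40.4) were highest there. Gja1 was lowest there (36.2 against 36.9 to 42.3). The mesenchymal sum (7 of 7 with entries, 6 at 1 FPKM or more) was also highest with rotenone, at 35.4 against 24.4 to 27.5 FPKM. The neural progenitor sum was lowest with rotenone, at 1322 against 1420 to 1611 FPKM, most of it Vim (987 FPKM there). Vim and Nes (start total 165 FPKM) were lowest there, while Fabp7 (start total 8.65 FPKM) and Hes5 (9.98 FPKM) were highest there. The neuron sum was also lowest with rotenone, at 364 against 390 to 425 FPKM. Of the neuron markers with entries, Gap43 alone was lowest there (153 FPKM). The part of these marker differences in the values of the amino acid genes was not tested.

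**Figure D2:**
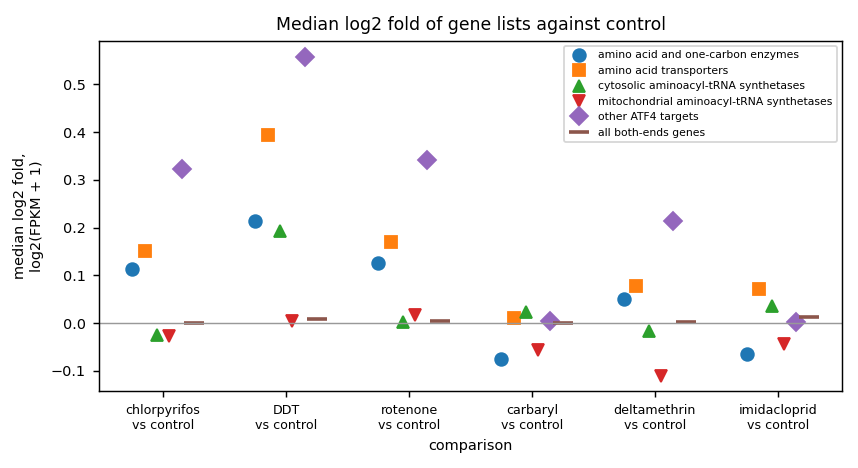
Median log2 fold (vertical axis, log2(FPKM + 1)) of each insecticide library against the control (horizontal axis) for the members by role, mitochondrial synthetases, other ATF4 targets and all usable genes. With DDT the members' medians by role lie between 0.19 and 0.40, while mitochondrial synthetases and all genes lie near 0.

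Promoter sequences were examined for the element through which ATF4 is known to act. The letters searched were TGATGNAAN, the core of the C/EBP-ATF response element, and TGACGTCA, the cyclic AMP response element, on both strands, in RefSeq windows of build GRCm38.p6 that run from 250 bases before to 50 after a start. Windows matched 29 of the 39 members by symbol. The first motif was present in 10 of these 29 (34.5%: Aars, Asns, Gars, Got1, Iars, Pycr1, Slc1a4, Slc7a11, Tars and Yars) and in 1215 of 27025 genes (4.5%). The second motif was in 0 of the 29, beside 2.03% of genes. Measured from the start, the match lay at -23 in Asns, -103 in Pycr1, -5 in Slc1a4, -31 in Gars and at -66 and -48 in Slc7a11, whose matches stand on opposite strands. A match is a description of letters and not a binding site. The 6 windows below are those of 5 members with a match whose levels are described next, and of Mthfd2, which has none of either motif, with the match in capitals, 5′ to 3′ on the gene's own strand.
Asns (chr6:7693160-7693459, minus strand): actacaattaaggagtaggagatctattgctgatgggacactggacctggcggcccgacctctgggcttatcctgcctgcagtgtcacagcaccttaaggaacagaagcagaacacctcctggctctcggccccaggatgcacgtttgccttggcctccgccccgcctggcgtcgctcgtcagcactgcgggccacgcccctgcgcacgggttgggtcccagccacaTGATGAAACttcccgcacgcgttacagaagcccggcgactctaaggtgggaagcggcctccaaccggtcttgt
Slc7a11 (chr3:50443564-50443863, minus strand): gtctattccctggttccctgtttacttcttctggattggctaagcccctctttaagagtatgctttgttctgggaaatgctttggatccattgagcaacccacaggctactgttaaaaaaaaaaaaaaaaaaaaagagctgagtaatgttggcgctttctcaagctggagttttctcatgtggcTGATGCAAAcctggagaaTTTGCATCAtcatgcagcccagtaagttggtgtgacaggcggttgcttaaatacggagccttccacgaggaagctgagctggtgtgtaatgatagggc
Pycr1 (chr11:120643699-120643998, minus strand): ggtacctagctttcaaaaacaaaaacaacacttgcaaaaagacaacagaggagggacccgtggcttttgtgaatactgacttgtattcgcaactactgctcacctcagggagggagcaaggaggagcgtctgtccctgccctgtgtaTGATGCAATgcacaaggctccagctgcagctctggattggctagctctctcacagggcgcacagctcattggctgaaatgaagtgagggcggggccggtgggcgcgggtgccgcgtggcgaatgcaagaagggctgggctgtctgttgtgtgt
Slc1a4 (chr11:20332664-20332963, minus strand): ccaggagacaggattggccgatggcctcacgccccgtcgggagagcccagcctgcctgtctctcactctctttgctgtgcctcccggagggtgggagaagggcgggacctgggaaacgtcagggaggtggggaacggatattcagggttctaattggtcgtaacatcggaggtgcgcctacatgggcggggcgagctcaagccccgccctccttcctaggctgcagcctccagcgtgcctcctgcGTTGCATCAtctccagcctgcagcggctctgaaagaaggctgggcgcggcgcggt
Gars (chr6:55037751-55038050, plus strand): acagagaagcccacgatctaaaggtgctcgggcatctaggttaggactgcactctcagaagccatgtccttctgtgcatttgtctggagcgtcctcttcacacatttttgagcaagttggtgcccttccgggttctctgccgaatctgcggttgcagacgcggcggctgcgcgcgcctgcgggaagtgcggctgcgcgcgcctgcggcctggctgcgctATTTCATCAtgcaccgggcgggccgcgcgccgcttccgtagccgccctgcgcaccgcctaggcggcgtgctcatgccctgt
Mthfd2 (chr6:83317555-83317854, minus strand): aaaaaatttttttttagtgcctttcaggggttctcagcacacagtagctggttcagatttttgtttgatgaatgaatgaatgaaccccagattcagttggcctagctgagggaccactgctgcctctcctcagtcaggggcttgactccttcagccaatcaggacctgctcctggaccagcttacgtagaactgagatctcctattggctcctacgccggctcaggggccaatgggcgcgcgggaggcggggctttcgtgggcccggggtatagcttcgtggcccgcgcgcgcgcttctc

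Members with a match lay over a wide range of DDT folds. The usable members with the motif had DDT log2 folds of 1.01 (Slc7a11), 0.67 (Asns), 0.36 (Slc1a4), 0.30 (Gars), 0.16 (Tars), 0.02 (Got1) and -0.12 (Iars). The 12 usable members with a window and no match ranged between -1.03 (Kars) and 0.53 (Slc7a1), with Mthfd2 at 0.46, Slc38a2 at 0.40, Phgdh at 0.19, Mthfd1l at 0.07 and Farsb at -0.29. The low Kars value came from its end total, and by start totals its fold was -0.24.

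Asparagine synthetase (Asns, ENSMUSG00000029752, chromosome 6, 7675169 to 7693254), which makes asparagine from aspartate and glutamine, stood at 39.5 FPKM with chlorpyrifos, 52.8 with DDT, 53.6 with rotenone, 32.8 with carbaryl, 39.4 with deltamethrin and 35.2 with imidacloprid, against 32.8 in the control. DDT and rotenone were the high libraries, chlorpyrifos and deltamethrin lay between, and carbaryl was at the level of the control. The log2 folds were 0.67 with DDT and 0.69 with rotenone, with start totals of 56.7 and 53.5 FPKM against 32.9 in the control and end totals of 48.9 and 53.7 FPKM against 32.7. By end totals alone Asns was under 1.5-fold with DDT, and against the median of the 6 other libraries it was under 1.5-fold with DDT and with rotenone.

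Serine synthesis held the most abundant member. Phosphoglycerate dehydrogenase (Phgdh), which opens serine synthesis and was the most abundant member, stood at 169 FPKM with chlorpyrifos, 178 with DDT, 174 with rotenone, 150.0 with carbaryl, 149 with deltamethrin and 149.6 with imidacloprid, against 156 in the control. The highest library was 1.2 times the lowest. Psat1, the aminotransferase that follows, had start totals of 109.8 FPKM with chlorpyrifos, 113 with DDT, 123 with rotenone, 54.5 with carbaryl, 118 with deltamethrin and 107 with imidacloprid, against 112 in the control. Carbaryl alone was low, at a log2 fold of start totals of -1.03. Psph, the phosphatase that completes serine, had start totals of 22.0, 21.2, 22.8, 17.5, 28.4 and 19.2 FPKM with chlorpyrifos, DDT, rotenone, carbaryl, deltamethrin and imidacloprid, against 16.6 in the control. All 6 exposed libraries were above the control, with deltamethrin at a log2 fold of 0.74.

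The one-carbon enzymes did not share 1 order of libraries. Mthfd2, the mitochondrial methylenetetrahydrofolate dehydrogenase, stood at 41.1 FPKM with chlorpyrifos, 47.8 with DDT, 41.5 with rotenone, 32.3 with carbaryl, 39.2 with deltamethrin and 32.9 with imidacloprid, against 34.5 in the control. Its 4 higher libraries were those in which Asns was above 39 FPKM, and the largest fold, 0.46 with DDT, stayed under 1.5-fold. Mthfd1l, the mitochondrial formyltetrahydrofolate synthetase, varied between 10.4 and 13.0 FPKM. Shmt2, the mitochondrial enzyme that splits serine into glycine and a one-carbon unit, had start totals of 41.5, 43.0, 37.6, 53.2, 39.1 and 26.1 FPKM with chlorpyrifos, DDT, rotenone, carbaryl, deltamethrin and imidacloprid, against 29.1 in the control. It was highest with carbaryl (0.85), where Mthfd2 was lowest. The cytosolic Shmt1 had start totals of 12.0 to 21.2 FPKM, highest with carbaryl, and the cytosolic Mthfd1 of 22.2 to 38.0 FPKM, highest with chlorpyrifos.

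Proline and cysteine synthesis showed the widest spread among the enzymes. Pycr1, the reductase that completes proline, had low start totals of 1.45 FPKM with chlorpyrifos, 9.18 with DDT, 8.43 with rotenone, 3.23 with carbaryl, 2.94 with deltamethrin and 4.40 with imidacloprid, against 1.66 in the control. DDT and rotenone stood apart from the rest, at log2 folds of start totals of 1.94 and 1.83. Aldh18a1, which makes the proline precursor from glutamate, stood at 29.8, 34.9, 19.5, 27.3, 19.1 and 28.2 FPKM with chlorpyrifos, DDT, rotenone, carbaryl, deltamethrin and imidacloprid, against 29.5 in the control. Rotenone and deltamethrin were its low libraries, so with rotenone the 2 enzymes of the same path lay on opposite sides of the control (-0.57 for Aldh18a1). Cystathionine gamma-lyase (Cth), which makes cysteine from cystathionine, had start totals of 3.56, 6.64, 7.09, 3.25, 3.82 and 2.69 FPKM in the same order of insecticides, against 2.35 in the control. DDT and rotenone again were the high libraries. Its end totals disagreed with its starts, so these are levels of starts only. Got1, the cytosolic aspartate aminotransferase, was flat at 37.3 to 44.1 FPKM.

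**Figure D3:**
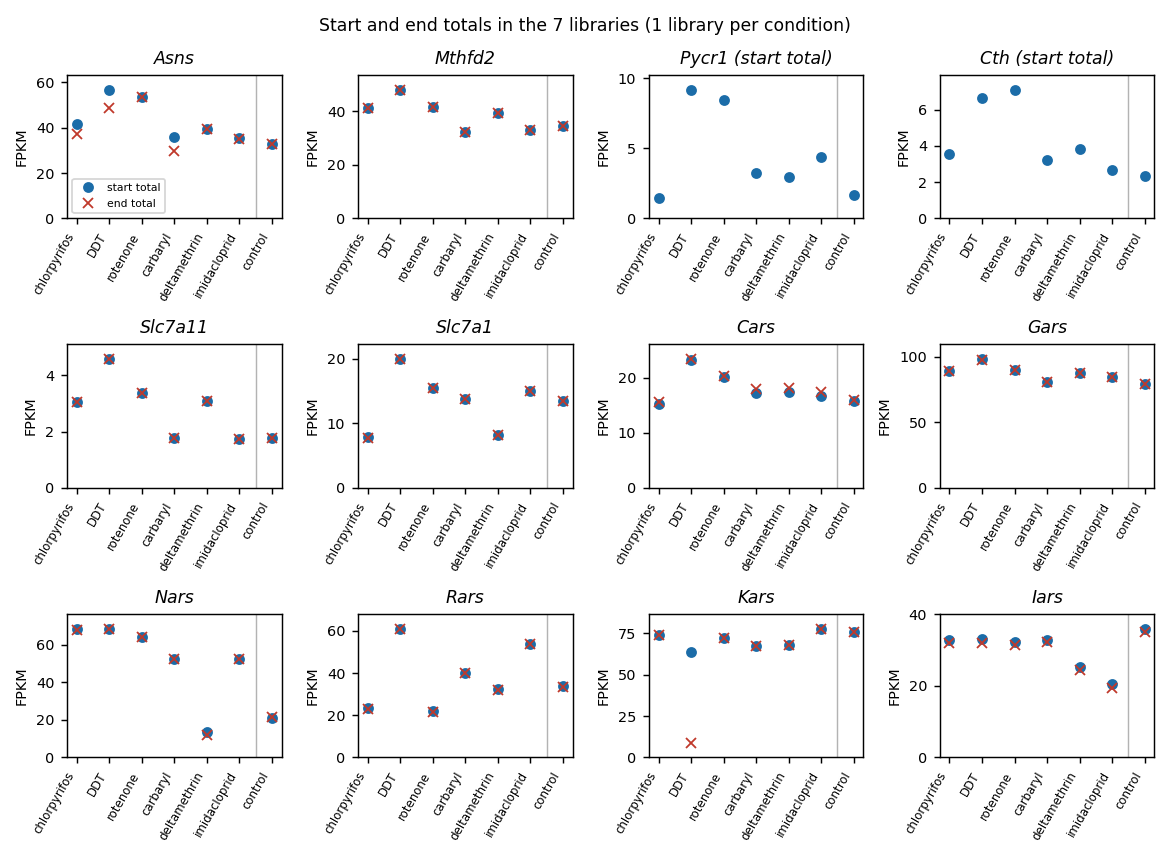
Start totals (circles) and end totals (crosses) in FPKM (vertical axes) of 12 members in each library (horizontal axes), insecticides first and control last; Pycr1 and Cth show start totals only. Asns, Pycr1 and Cth are highest with DDT and rotenone, Nars is low with deltamethrin and in the control, and the Kars end total is far below its start total with DDT.

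Among the transporters, the cystine and glutamate exchanger Slc7a11 had the largest DDT fold. It stood at 3.05 FPKM with chlorpyrifos, 4.56 with DDT, 3.39 with rotenone, 1.76 with carbaryl, 3.07 with deltamethrin and 1.75 with imidacloprid, against 1.76 in the control. The libraries fell into a set of 3 at the control's level, a set of 3 above 3 FPKM, and DDT above these, with log2 folds of 1.01 for DDT, 0.67 for rotenone, 0.56 for deltamethrin and 0.55 for chlorpyrifos. Its rotenone call was lost against the median of the 6 other libraries, and its DDT and rotenone calls at a pseudocount of 5 FPKM. Its partner Slc3a2, the heavy chain it shares with Slc7a5, was the most abundant transporter gene, at 84.0 FPKM with chlorpyrifos, 84.1 with DDT, 80.5 with rotenone, 74.1 with carbaryl, 85.0 with deltamethrin and 78.1 with imidacloprid, against 75.6 in the control. It was within 0.17 log2 of the control in each exposed library.

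The cationic amino acid carrier Slc7a1, which brings in arginine and lysine, stood at 7.85 FPKM with chlorpyrifos, 19.9 with DDT, 15.5 with rotenone, 13.7 with carbaryl, 8.2 with deltamethrin and 15.0 with imidacloprid, against 13.5 in the control. DDT was high, while chlorpyrifos (-0.71) and deltamethrin (-0.65) were the low libraries. The alanine, serine and cysteine carrier Slc1a4 stood at 28.2 FPKM with DDT, against 21.7 in the control (0.36), and at 21.9 to 24.5 FPKM with the other insecticides. Slc38a2, a sodium-coupled neutral amino acid carrier, stood at 48.1 FPKM with DDT, against 36.3 in the control (0.40), and at 37.3 to 42.3 FPKM with the other insecticides. For Slc1a4 and Slc38a2 the control was the lowest library. The glutamine carrier Slc1a5 had start totals of 11.2 to 15.5 FPKM, highest with DDT. Slc7a5, the large neutral amino acid carrier (chromosome 8, 121881150 to 121907694), had 0 events of any type in the 7 libraries and has no value here.

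**Figure D4:**
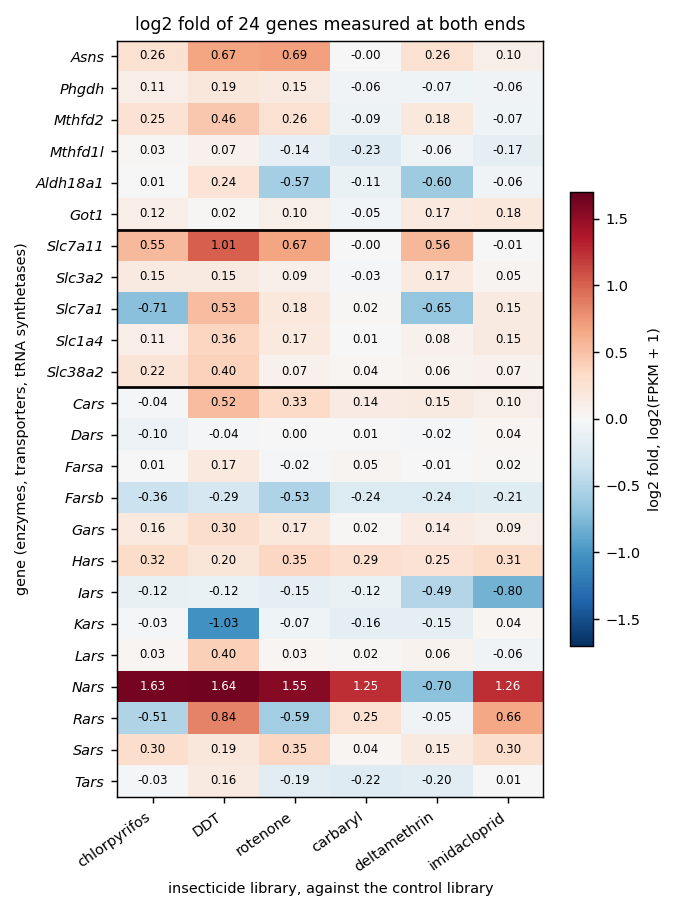
Log2 fold against the control of each of the 24 usable members, by role, for the 6 insecticide libraries, as colour and number. In the DDT column 20 of 24 members stand above the control, and Nars is positive in all columns but deltamethrin.

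The synthetases differed in how much they varied. In Cars, Iars, Kars, Nars and Rars the highest library was at least 1.5 times the lowest, beside 35.3% of all usable genes. Of the 13 usable synthetases, the most abundant was Gars, for glycine, at 88.8 FPKM with chlorpyrifos, 97.6 with DDT, 89.6 with rotenone, 80.6 with carbaryl, 87.5 with deltamethrin and 84.7 with imidacloprid, against 79.3 in the control. The control was the lowest library and DDT the highest (0.30). Cars, for cysteine, stood at 23.3 FPKM with DDT and 20.3 with rotenone, against 15.9 in the control (0.52 and 0.33), and at 15.5 to 17.8 FPKM with the other insecticides. Lars, for leucine, stood at 35.3 FPKM with DDT, against 26.5 in the control (0.40), and at 25.4 to 27.6 FPKM with the other insecticides.

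Nars, for asparagine, had the widest spread of the usable members. It stood at 67.9 FPKM with chlorpyrifos, 68.2 with DDT, 64.0 with rotenone, 52.1 with carbaryl, 12.7 with deltamethrin and 52.3 with imidacloprid, against 21.2 in the control. There were 5 high libraries and 2 low ones, deltamethrin and the control, with nothing between. The log2 folds were 1.63, 1.64, 1.55, 1.25, -0.70 and 1.26 in that order. Each positive fold is taken against 1 of the 2 low libraries. Set against the median of the 6 other libraries, Nars was not 1.5-fold higher in any of them. With 5 high libraries that median always lies among the high values, so this outcome was fixed. A low control and a rise shared by the 5 high libraries cannot be told apart here.

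Rars, for arginine, stood at 23.1 FPKM with chlorpyrifos, 60.8 with DDT, 21.9 with rotenone, 40.1 with carbaryl, 32.2 with deltamethrin and 53.6 with imidacloprid, against 33.5 in the control. DDT (0.84) and imidacloprid (0.66) were high, and chlorpyrifos (-0.51) and rotenone (-0.59) low. Iars, for isoleucine, stood at 32.5 FPKM with chlorpyrifos, 32.6 with DDT, 31.9 with rotenone, 32.6 with carbaryl, 24.9 with deltamethrin and 20.0 with imidacloprid, against 35.4 in the control. Imidacloprid was the lowest library, at a log2 fold of -0.80.

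Kars, for lysine, stood at 74.0 FPKM with chlorpyrifos, 36.5 with DDT, 71.9 with rotenone, 67.5 with carbaryl, 68.1 with deltamethrin and 77.6 with imidacloprid, against 75.7 in the control. The low DDT value (-1.03) came from 1 end of the gene: its start total with DDT was 64.0 FPKM and its end total 8.89 FPKM, against 75.7 for each in the control. Without it, no usable member was 1.5-fold lower with DDT. Farsb, the beta subunit for phenylalanine, was lower in all 6 exposed libraries, at 15.4 to 19.6 FPKM against 22.7 in the control, while the alpha subunit Farsa stood at 48.3 to 55.2 FPKM against 49.0. Hars, for histidine, was higher in all 6, at 44.7 to 49.5 FPKM against 38.6 in the control, and Sars, for serine, likewise, at 46.5 to 58.1 FPKM against 45.2. The largest of these folds was -0.53 for Farsb with rotenone, under 1.5-fold. Dars, for aspartate, varied least, between 53.9 and 59.5 FPKM, and Tars, for threonine, lay between 24.8 and 32.6 FPKM.

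Synthetases without a usable pair of ends are given as levels. The DDT start total of Eprs, for glutamate and proline, was 56.1 FPKM, against 45.0 in the control, and that of Yars, for tyrosine, 49.5 against 41.6, and both were highest with DDT. Qars, for glutamine, had start totals of 37.0 FPKM with chlorpyrifos, 24.7 with DDT, 33.2 with rotenone, 36.9 with carbaryl, 38.6 with deltamethrin and 31.0 with imidacloprid, against 42.9 in the control. The control was its highest library and DDT its lowest (-0.77). Wars, for tryptophan, had start totals of 31.5 to 39.1 FPKM. Vars, for valine, had start totals of 51.9 to 65.5 FPKM and end totals of 36.7 to 58.1 FPKM. The events of Aars, for alanine, carry the identifier of the overlapping gene Exosc6 in the files. Taken from the GENCODE annotation, Aars stood at 54.6 FPKM with chlorpyrifos, 64.5 with DDT, 66.0 with rotenone, 63.4 with carbaryl, 53.9 with deltamethrin and 49.1 with imidacloprid, against 52.5 in the control.

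Taken by insecticide, the calls at 1.5-fold were few. With rotenone, Asns, Slc7a11 and Nars were higher, 3 of 24 beside 3.06% of all genes, and Rars was lower, 1 of 24 beside 3.27%. With chlorpyrifos, Nars was higher, 1 of 24 beside 2.66%, and Slc7a1 lower, 1 of 24 beside 3.24%. With carbaryl, Nars was higher, 1 of 24 beside 3.1%, and 0 of 24 were lower, beside 3.23%. With deltamethrin 0 of 24 were higher, beside 2.97%, and Aldh18a1, Slc7a1 and Nars were lower, 3 of 24 beside 3.22%. With imidacloprid, Nars and Rars were higher, 2 of 24 beside 3.17%, and Iars lower, 1 of 24 beside 2.82%. At 2-fold or more, Slc7a11 and Nars were higher with DDT (2 of 24, beside 0.781%) and Kars lower (1 of 24, beside 0.957%). Nars was the 1 member at 2-fold or more higher with rotenone (beside 0.702%), chlorpyrifos (beside 0.734%), carbaryl (beside 0.847%) and imidacloprid (beside 0.877%), with 0 members higher with deltamethrin (beside 0.718%). Lower at 2-fold were 0 members with rotenone (beside 0.941%), chlorpyrifos (beside 0.877%), carbaryl (beside 1.29%), deltamethrin (beside 0.989%) and imidacloprid (beside 0.846%). Leaving out Nars, the members at 1.5-fold or more higher were 3 with DDT, 2 with rotenone, 1 with imidacloprid and 0 with the other insecticides.

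Of the 11 start-only members, 4 (Pycr1, Slc1a5, Eprs and Yars) had their highest start total with DDT, beside 15.8% of start-only genes. Their start totals had medians of 0.25 with DDT, 0.07 with chlorpyrifos, 0.05 with rotenone, 0.06 with carbaryl, 0.07 with deltamethrin and -0.02 with imidacloprid. Pycr1 was 1.5-fold or more higher with DDT (1 of 11, beside 5.03% of start-only genes), rotenone (1 of 11, beside 4.8%) and imidacloprid (1 of 11, beside 4.58%), where 0 of 11 were lower, beside 5.26% with rotenone and 4.72% with imidacloprid. With carbaryl, Pycr1 and Shmt2 were higher (2 of 11, beside 4.8%) and Psat1 lower (1 of 11, beside 5.45%). Qars was lower with DDT (1 of 11, beside 4.7%), and Psph higher with deltamethrin (1 of 11, beside 4.8%), where 0 of 11 were lower, beside 5.27%. With chlorpyrifos 0 of 11 were called in either direction, beside 4.8% higher and 5.92% lower.

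Over all 7 libraries the members' spread was close to that of all genes. The ratio of the highest to the lowest library had a median of 1.36 over the 24 usable members, beside 1.34 over all usable genes. It was 1.5 or more in 9 of 24 members, beside 35.3% of genes, and 2 or more in 5 (Slc7a11, Slc7a1, Kars, Nars and Rars), beside 15.3%. Nars alone passed 3, beside 5.07%.

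In several members the start that carried most FPKM differed between libraries. Iars starts at chromosome 13, 49682100 to 49682203, or further in at 49687393 to 49687511. The outer start held 92.5% of Iars start FPKM with chlorpyrifos, 60.9% with DDT, 30.9% with rotenone, 25.1% with carbaryl, 3.5% with deltamethrin and 80.1% with imidacloprid, against 6.1% in the control. Its summed level stayed at 31.9 to 32.6 FPKM in the chlorpyrifos, DDT, rotenone and carbaryl libraries, over which the outer start's share varied between 25.1% and 92.5%.

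Asns has an outer start at chromosome 6, 7693109 to 7693254, which overlaps the window shown above. This start held 29.3% of Asns start FPKM with chlorpyrifos, 38.2% with DDT, 96.4% with rotenone, 45.9% with carbaryl, 49.9% with deltamethrin and 52.0% with imidacloprid, against 51.8% in the control. In FPKM it stood at 21.6 with DDT and 51.6 with rotenone, against 17.0 in the control, and the inner start, at 7692711 to 7692871, stood at 27.1 with DDT and 1.92 with rotenone, against 15.5. A further start, at 7692897 to 7693110, held 13.7% with DDT and 0% with rotenone. By these estimates the near-equal Asns totals with DDT and rotenone were made of different shares of the starts. In Psph, an inner start at chromosome 5, 129779022 to 129779173, held 89.5% of start FPKM with deltamethrin, the library in which Psph was highest. In Slc3a2, an outer start held 16.2% with rotenone. In Aars, by annotation, an outer start held 44.1% with DDT. The FPKM of single starts are estimates from overlapping transcripts, and how far that apportioning differs between libraries was not tested.

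**Figure D5:**
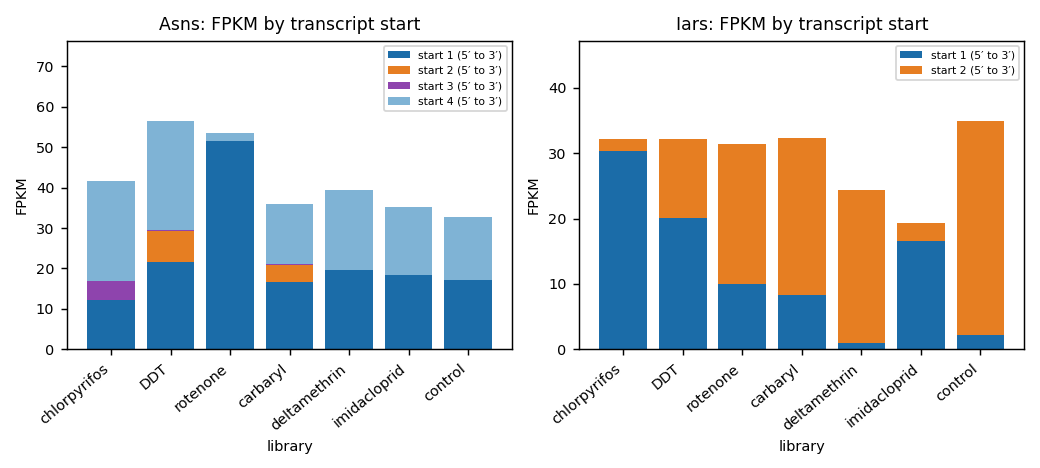
FPKM (vertical axes) of the transcript starts of Asns and Iars, stacked in each library (horizontal axes) and numbered in the direction of transcription, so that the first is the outer one. The outer Asns start held 96.4% of all Asns start FPKM with rotenone. The outer Iars start held 92.5% of all Iars start FPKM with chlorpyrifos and 3.5% with deltamethrin. Minor starts are not drawn.

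Related lists were read beside the members. Other known ATF4 targets, 9 usable of 18, had medians of 0.56 with DDT, 0.34 with rotenone, 0.32 with chlorpyrifos, 0.21 with deltamethrin, 0.01 with carbaryl and 0.00 with imidacloprid, where the rotenone, carbaryl and deltamethrin medians rest on 8 genes because Gdf15 was listed at 0 there. All 9 usable targets stood above the control with DDT and with chlorpyrifos, and so did all 8 with rotenone. At 1.5-fold or more higher with DDT were Trib3, Chac1 and Gdf15, 3 of 9 beside 3.4% of all genes. With chlorpyrifos they were Trib3, Chac1, Gdf15 and Vldlr, 4 of 9 beside 2.66%. With rotenone they were Trib3, Chac1 and Vldlr, 3 of 8 beside 3.06%. With deltamethrin they were Chac1 and Vldlr, 2 of 8 beside 2.97%. With carbaryl it was Vldlr, 1 of 8 beside 3.1%, and with imidacloprid none of 9, beside 3.17%. Trib3 was low, at 0.43 to 2.18 FPKM, and Gdf15 stood at 0.90 FPKM in the control. Vldlr stood at 6.64 to 9.12 FPKM in the exposed libraries, and the control was its lowest, at 4.28 FPKM. Atf4 itself, whose protein is set mainly by translation, stood at 110.2 FPKM with chlorpyrifos, 134 with DDT, 118 with rotenone, 101.6 with carbaryl, 102.5 with deltamethrin and 101.0 with imidacloprid, against 101.6 in the control. DDT was the highest library (0.40) and 4 libraries, the control among them, stood near 101 to 103 FPKM.

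Mitochondrial aminoacyl-tRNA synthetases, which charge transfer RNA inside mitochondria, stood at the median of all genes with DDT. For 11 usable of 17 the median log2 fold was 0.00 with DDT, beside 0.19 for the 13 cytosolic synthetases, and between -0.11 and 0.02 with the other insecticides. Of these, Lars2 stood at 42.0 FPKM with chlorpyrifos, 35.7 with DDT, 69.4 with rotenone, 39.1 with carbaryl, 42.4 with deltamethrin and 29.9 with imidacloprid, against 24.6 in the control. Rotenone was the high library, at a log2 fold of 1.46, and the chlorpyrifos, carbaryl and deltamethrin folds also passed 1.5-fold. In each of these libraries Lars2 was 1 of 11 usable genes called higher, beside 2.66% to 3.1% of all genes. Pars2 was lower with carbaryl, at 1.44 FPKM against 4.03 in the control (-1.04), 1 of 11 beside 3.23%. Ears2 was lower with imidacloprid, at 2.16 FPKM against 5.15 in the control (-0.96), 1 of 11 beside 2.82%. In the other lists fixed for comparison, no usable gene was 1.5-fold higher or lower with any insecticide among 10 usable of 15 sensors and control genes of the integrated stress response, 9 usable of 16 genes of amino acid sensing by mTORC1, 16 usable of 28 other amino acid enzymes, and 4 usable of 6 other synthetase complex genes. All genes were called at shares of 2.66% to 3.4% in each direction, so the absence of calls in lists this small is near those shares. Of 9 usable of 21 other amino acid transporters, Slc25a22 was lower with carbaryl, 1 of 9 beside 3.23%.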

How the data were processed

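Total RNA of 7 cultures was sequenced, 1 library per group, with groups taken from the sample titles. Per the submitters' processing notes, HISAT2 2.0.1, cutadapt 1.9.1 and bcl2fastq 2.17.1.14 were used with build GRCm38. What computed the FPKM was not given in the sources used here. The deposited files list the authors' FPKM per transcript event, per the file headers, used as deposited with no further scaling. Repeated lines were dropped. Start events and end events were summed per Ensembl identifier, and an end below 5% of its counterpart was treated as missing. By identifier and by GENCODE M21 annotation, 30 of the 39 members had the same totals. In all, 6.57% of matched FPKM stood on lines that name another gene. The pseudocount was 1 FPKM, and no fold was taken where a gene was listed at 0. The lowest values are not whole reads, so no depth, interval or floor is given. The code was tested on simulated data and run in Python 3.11.15 with pandas 2.3.3 and numpy 2.4.6. All members are accounted for, those at 1.5-fold and the most abundant of each role are given by library, and genes of the other lists are named at 1.5-fold, at most 4 a list. Further members given by library or by start use, and genes outside that rule such as Atf4, were chosen after their values were seen. The members and lists were chosen with earlier results of these data known, so none of the patterns is independent support. Alternatives covered the pseudocount, the filter on low values, end agreement, scaling, gene assignment and the reference library.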

Additional observations from a re-analysis of the deposited data

How the results depend on the processing

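Over the alternatives, 77 of the medians and 137 of the counts of members at 1.5-fold kept their reading, and 1 median and 19 counts moved. A median kept its reading where it changed by less than 0.1 log2, so a small median could change sign. The carbaryl median ranged between -0.11 and 0.02, the deltamethrin median between -0.02 and 0.06, and the imidacloprid median between -0.003 and 0.06. The chlorpyrifos and rotenone medians stayed positive, between 0.03 and 0.11 and between 0.02 and 0.13. The DDT median ranged between 0.20 and 0.25, and DDT was the highest library for 14 of 24 (with median-of-ratios scaling) to 16 of 24 members (with start totals alone), for 14 of 23 or 14 of 22 with stricter filters, and for 20 of 37 with the larger end of every gene. With a pseudocount of 0.1 FPKM the count was 2 higher for chlorpyrifos, 2 lower for rotenone and 1 higher for deltamethrin. With 5 FPKM it was 0 lower for chlorpyrifos, rotenone and deltamethrin. With the larger end of every gene it was 5 higher for rotenone, 3 higher and 1 lower for carbaryl and 1 higher for deltamethrin, since 37 members then enter. The lower count for DDT, which is Kars, was 0 with ends within 0.1, with start totals alone, and with ends within 0.3 in each of the 2 libraries compared, an alternative chosen after seeing the data. With the median of the 6 other libraries as reference it was 0 higher and 2 lower for chlorpyrifos, 2 higher for DDT, 0 higher for rotenone, 0 higher for carbaryl and 1 higher for imidacloprid, and the carbaryl median was -0.11. Against that median the calls lost were Nars with DDT, rotenone, chlorpyrifos, carbaryl and imidacloprid, Asns with DDT and rotenone, Slc7a11 with rotenone and Aldh18a1 with deltamethrin. For Nars that median lies among its high libraries, so the loss of its calls was fixed in advance. Slc7a11 also lost its calls with DDT and rotenone at a pseudocount of 5 FPKM, and Asns its call with DDT by end totals alone. No paired analysis was possible because each group has 1 library. With 1 library per group, leaving out a replicate could not be done, and the unknown depth limits the low genes Slc7a11, Pycr1 and Cth most.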
